A study of Mus musculus with 11 samples.

Results

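The acute-phase and NF-kB inflammatory genes described here were 10 genes chosen by symbol, *Lcn2*, *Saa3*, *C3*, *Hp*, *Cxcl1*, *Cxcl12*, *Ccl2*, *Icam1*, *Nfkbia* and *Il6ra*, of the 24849 genes in the count table. They were chosen with earlier results of these data known, and each gene had 1 entry in the table. RNAseq was performed on polyadenylated RNA of AML12 cells, a hepatocyte line of the mouse liver, in 11 libraries. The KO group held 4 libraries, numbered 5 to 8. Their genotype is given as TXNDC5 Knockdown in the labels, while the methods of the study describe a knockout made with CRISPR/Cas9 plasmids and kept by puromycin resistance. The WT group held 3 libraries of AML12 cells, numbered 5-6, 7 and 8. The KI group held 4 libraries, numbered 5 to 8, with the genotype TXNDC5 Knockin, and the design text places the overexpressed construct at the ROSA26 locus. The promoter of that construct, and whether each line was grown from 1 clone, are not given in the sources used here. The medium described for AML12 cells held insulin, transferrin, selenium and dexamethasone, a synthetic glucocorticoid, and no cytokine or endotoxin treatment is named. Nothing in the labels says that the libraries of a group came from separate cultures, so the p-values measure the spread between these libraries, which may be technical.

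In the acute phase response the hepatocyte changes which plasma proteins it secretes. IL-6 acts on its receptor and gp130 and activates STAT3, while IL-1 and TNF free NF-kB from its inhibitor IkBa. NF-kB then drives genes of chemokines and adhesion molecules and also *Nfkbia*, which encodes IkBa and closes a feedback loop, and C/EBP factors, first described as NF-IL6, act on many acute-phase promoters. Glucocorticoids restrain much of the NF-kB output, yet act together with IL-6 on several acute-phase genes.

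The promoters of 8 of the 10 genes were matched by symbol in RefSeq (GRCm38.p6), and the 250 bases before each start were searched on both strands. *Hp* and *Ccl2* had no entry. The NF-kB binding consensus named kappaB was found in 2 of the 8 promoters (*Cxcl1* and *Nfkbia*) and in 3.9% of all 32851 promoters of that length. The NF-IL6 letters TTNNGNAA were found in 5 of the 8 (*Lcn2*, *Saa3*, *C3*, *Icam1* and *Il6ra*) and in 36.8% of all promoters. The promoters below are shown because they hold the kappaB matches, for *Cxcl1* and *Nfkbia*, and the most NF-IL6 matches, for *Saa3* and *C3*. Each runs 5′ to 3′ in the direction of its gene, and the capitals mark the matched letters.
*Cxcl1* (chr5:90890995-90891244, plus strand): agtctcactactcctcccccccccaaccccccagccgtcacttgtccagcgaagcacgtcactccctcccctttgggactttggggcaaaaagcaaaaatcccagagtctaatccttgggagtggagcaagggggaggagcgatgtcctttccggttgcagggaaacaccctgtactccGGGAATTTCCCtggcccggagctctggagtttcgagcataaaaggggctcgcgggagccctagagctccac
*Nfkbia* (chr12:55492648-55492897, minus strand): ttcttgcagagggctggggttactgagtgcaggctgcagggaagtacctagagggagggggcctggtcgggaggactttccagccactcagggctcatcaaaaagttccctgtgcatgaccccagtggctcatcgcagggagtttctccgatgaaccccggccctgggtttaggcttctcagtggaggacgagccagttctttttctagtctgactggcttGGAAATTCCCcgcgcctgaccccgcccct
*Saa3* (chr7:46715677-46715926, minus strand): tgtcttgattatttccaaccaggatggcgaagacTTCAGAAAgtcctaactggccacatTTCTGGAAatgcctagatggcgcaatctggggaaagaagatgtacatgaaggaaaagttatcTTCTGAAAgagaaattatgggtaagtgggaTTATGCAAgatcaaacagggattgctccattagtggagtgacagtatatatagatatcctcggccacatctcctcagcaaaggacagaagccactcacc
*C3* (chr17:57228137-57228386, minus strand): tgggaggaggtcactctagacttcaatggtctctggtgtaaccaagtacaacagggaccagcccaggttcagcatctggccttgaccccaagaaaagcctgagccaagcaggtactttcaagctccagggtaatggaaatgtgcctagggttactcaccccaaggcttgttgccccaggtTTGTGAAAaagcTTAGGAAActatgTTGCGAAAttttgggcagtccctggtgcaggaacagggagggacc
Counted from the start, the *Cxcl1* match lay from -71 to -61 and consisted of a pair of overlapping kappaB matches, 1 on each strand. In *Nfkbia* the kappaB match lay from -29 to -20. *Saa3* held NF-IL6 matches beginning at -216, -191, -129 and -99, and *C3* at -70, -58 and -45. The STAT letters TTCNNNGAA were found in 7.02% of all promoters and, of these genes, in *Icam1* at -42. Neither the AP-1 letters TGACTCA or TGAGTCA, in 4.46% of all promoters, nor TATAAA on the strand of the gene, in 7.59%, were found in the 8. A match describes letters and not a bound site.

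The KO libraries held 30380360 to 38422243 counts each, the WT libraries 29840366 to 30364098 and the KI libraries 32360709 to 35335070. A gene was taken as not detected at 3 counts or fewer, a share of 1.01e-05% at most, and this floor accounts for counting error alone. The target of the editing, *Txndc5*, showed 287 to 430 counts per KO library, 3299 to 4046 per WT library and 5344 to 6723 per KI library. It was lower in KO than in WT by edgeR's quasi-likelihood test (log2 fold change -3.81, adjusted p = 4.09e-08). In KI against WT it was not called higher after TMM scaling (0.24, adjusted p = 0.136), but was with library totals (0.57, adjusted p = 0.00623). These settings differ in how the WT libraries are scaled. Their TMM factors were 0.744 to 0.947, against 1.02 to 1.13 in the other groups, and in them 1 newly assembled entry took 11.3% to 17.1% of the counts against 4.32% to 9.12%. Library totals shifted the all-gene median on the log2 scale from -0.03 to 0.38 in KO against WT, and from -0.02 to 0.30 in KI against WT. The share of higher genes among those called went from 48.5% to 72.8% and from 50.2% to 76.3%. The summed level of 7 hepatocyte markers was 7612 to 9733 CPM in KO, 4670 to 6510 in WT and 6398 to 7855 in KI libraries, though its genes went opposite ways. *Alb* was higher in KO (2.99) and lower in KI (-1.06) than in WT, *Ttr* was lower in KO (-0.93), and *Krt8* (0.62) and *Krt18* (0.86) were higher in KI. Of 8 macrophage markers, *Adgre1*, *Clec4f* and *Marco* had 0 counts in every library, and the sum was 1.95 to 2.69 CPM in KO, 6.73 to 9.56 in WT and 3.24 to 6.66 in KI. *Cd68* had 4.37 to 7.29 CPM in WT. Of 3 tested, *Cd68* (-1.98) and *Ptprc* (-3.45) were called lower in KO, and in KI *Cd68* (-1.56) was. Cholangiocyte markers summed to 1339 to 1504 CPM in KO, 2974 to 4379 in WT and 2604 to 3083 in KI, with *Epcam* at 0. These too went opposite ways, since of 4 tested 3 were lower in KO and 1 higher, *Krt19* (0.49, adjusted p = 0.0117). The 5 neutrophil markers summed to 14.3 to 15.3, 4.92 to 6.29 and 4.29 to 7.36, most of it *S100a8*, with *Elane* and *Mpo* at 0. Stellate cell and endothelial markers did not exceed 1.86 and 0.425 CPM in sum. The part of these markers in the results that follow was not tested.

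The first question was whether these genes differ between cells with little TXNDC5 and WT cells. Of the 10 genes, 9 were tested and *Cxcl12* was not detected. In KO against WT, 7 of the 9 were called lower and 1 higher, *Il6ra*, at an adjusted p under 0.05, and *Nfkbia* was not called. Of all 13359 genes tested 55.1% were called, 28.4% lower and 26.7% higher. In KI against WT, 6 of the 9 were called lower and 0 higher, where 42.3% of 13534 genes were called, 21.0% lower and 21.2% higher. Without adjustment *Nfkbia* was also higher in KI at a p under 0.05. DESeq2 also called 6 lower and 0 higher. Library totals in place of TMM gave 4 lower and 2 higher of the 9 genes in KO, and 3 lower and 2 higher in KI. Under library totals 7799 of all genes were called in KO, 72.8% of them higher, and 6058 in KI, 76.3% of them higher. The counts with library totals given for the lists below stand beside these same shares. The median log2 fold change of the 9 genes was -0.91 in KO and -0.76 in KI, against -0.03 and -0.02 over all genes tested. These comparisons share the WT libraries and are therefore not independent of each other. In the direct comparison of KO with KI, 5 of the 9 were higher in KO, *Lcn2*, *Saa3*, *Hp*, *Icam1* and *Il6ra*, and 1 was lower, *Ccl2*, where 54.0% of 13269 genes were called, 27.0% higher and 27.0% lower. Levels below are CPM, the counts relative to library size, scaled by TMM over all 11 libraries, in the order 5 to 8 for KO and KI and 5-6, 7 and 8 for WT. Fold changes are on the log2 scale, with the standard error and the adjusted p of edgeR's quasi-likelihood test on the libraries of each pair of groups. In bulk RNA of this kind, fewer cells expressing a gene and less RNA per cell cannot be told apart.

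**Figure D1:**
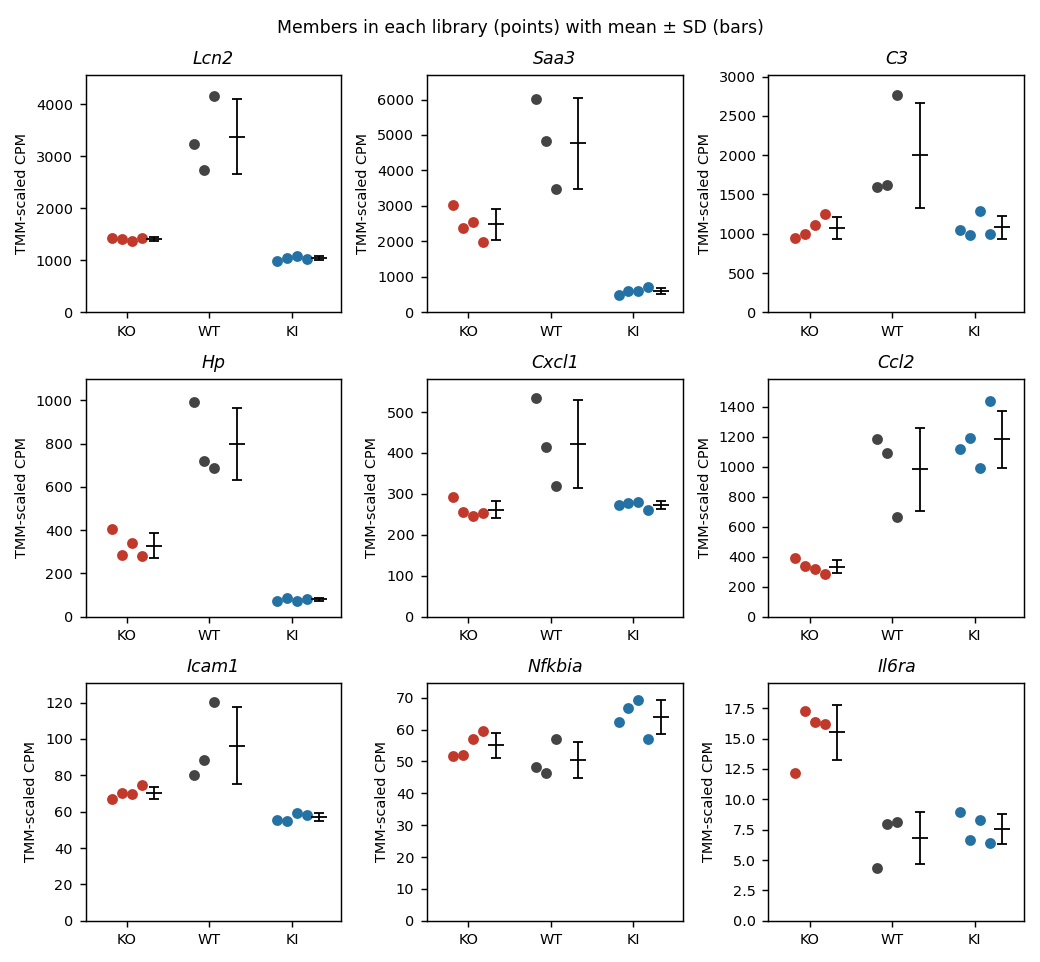
Level of each of the 9 detected genes (vertical axis, TMM-scaled CPM from 0) in the KO, WT and KI libraries (horizontal axis). Points are libraries and bars are the mean ± SD. For *Saa3* and *Hp* the KI libraries lie lowest and the KO libraries between KI and WT, whereas for *Ccl2* the KO libraries alone lie low, at 283.9 to 387.9 CPM.

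*Lcn2* encodes lipocalin 2, which binds bacterial siderophores and is secreted by inflamed hepatocytes. Its level was 1439, 1409, 1370 and 1436 CPM in KO, 3242, 2736 and 4159 in WT and 995.8, 1049, 1093 and 1026 in KI. The 3 groups did not overlap, with WT highest, KO next and KI lowest. The log2 fold change was -1.28 in KO against WT (standard error 0.16, adjusted p = 8.78e-05) and -1.70 in KI against WT (0.17, adjusted p = 1.22e-05), and KO exceeded KI by 0.45 (0.08, adjusted p = 3.14e-04). The KO and KI libraries were close to each other within their groups, with an SD of 31.8 and 41.0 CPM, whereas the SD of the WT libraries was 721.1 CPM.

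*Saa3*, a serum amyloid A gene that is induced by IL-1 and TNF in many mouse tissues, had the highest mean level of the 9 genes in WT. It reached 3036, 2369, 2543 and 1995 CPM in KO, 6022, 4819 and 3466 in WT and 500.9, 592.8, 599.6 and 715.8 in KI. The 3 groups again did not overlap, and the highest KI library lay far under the lowest KO library. Against WT, *Saa3* fell by 0.96 in KO (standard error 0.21, adjusted p = 0.00295) and by 2.99 in KI (0.21, adjusted p = 8.40e-07). The test of KO against KI gave 2.05 (0.14, adjusted p = 8.41e-09), so the lower level in KI than in KO exceeded the spread between libraries. With library totals the change in KO was -0.52 (adjusted p = 0.0135), still called.

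*Hp* encodes haptoglobin, the plasma protein that captures free hemoglobin. It showed 406.1, 282.8, 341.5 and 281.3 CPM in KO, 991.4, 717.6 and 686.2 in WT and 73.6, 86.7, 73.1 and 82.3 in KI. The order of the groups was that of *Saa3*, without overlap. *Hp* fell by 1.30 in KO (standard error 0.18, adjusted p = 1.25e-04) and its log2 fold change was -3.34 in KI (0.17, adjusted p = 7.17e-08), the largest difference among the 9 genes in the 3 comparisons, and KO exceeded KI by 2.06 (0.12, adjusted p = 1.70e-09). The ratio of *Saa3* to *Hp* counts within a library, which needs no scaling, was 7.09 to 8.38 in KO, 5.05 to 6.72 in WT and 6.81 to 8.7 in KI. The ratio of *Hp* to *Lcn2* counts was 0.196 to 0.282 in KO, 0.165 to 0.306 in WT and 0.0669 to 0.0827 in KI. Thus the proportion of *Saa3* to *Hp* overlapped between KO and KI, while the proportion of *Hp* to *Lcn2* was lower in every KI library than in any KO or WT library. These ratios were chosen after the values were seen and are given without a test.

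*C3*, the central component of complement, had 944.7, 991.9, 1113 and 1252 CPM in KO, 1600, 1624 and 2763 in WT and 1047, 983.7, 1293 and 1002 in KI. All KO and KI libraries lay below all WT libraries, and KO and KI overlapped. The log2 fold change was -0.91 in KO (standard error 0.21, adjusted p = 0.00333) and -0.88 in KI (0.21, adjusted p = 0.00452), and the difference of KO and KI was 0.00 (0.12, adjusted p = 0.978). WT library 8 stood above the other WT libraries for this gene. Without it the change was -0.58 in KO (adjusted p = 0.00279) and -0.58 in KI (adjusted p = 0.00452). With library totals, -0.53 in KO (adjusted p = 0.0867) and -0.59 in KI (adjusted p = 0.0679) were no longer called.

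Among the chemokines, *Ccl2*, which attracts monocytes through CCR2, set KO apart from KI. Its level was 387.9, 338.7, 314.4 and 283.9 CPM in KO, 1186, 1092 and 666.6 in WT and 1117, 1189, 987.6 and 1438 in KI. Every KO library lay below every other library, and WT and KI overlapped. *Ccl2* fell by 1.59 in KO against WT (standard error 0.20, adjusted p = 7.40e-05), the largest fall of the 9 genes in this comparison, and by 1.83 in KO against KI (0.12, adjusted p = 1.00e-08). In KI against WT the log2 fold change was 0.27 (0.21, adjusted p = 0.323), which did not pass the test. It was 0.62 and called with library totals (adjusted p = 0.00823). Per *Saa3* count, a library held 0.124 to 0.143 *Ccl2* counts in KO, 0.192 to 0.227 in WT and 1.65 to 2.23 in KI, so that *Saa3* outnumbered *Ccl2* in every KO and WT library and *Ccl2* outnumbered *Saa3* in every KI library.

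*Cxcl1*, a neutrophil attractant acting on CXCR2 and the holder of the overlapping kappaB matches printed above, had 292.4, 255.9, 244.9 and 252.6 CPM in KO, 533.9, 415.2 and 318.7 in WT and 272.7, 277.0, 280.0 and 259.5 in KI. KO and KI overlapped and both lay below WT. The log2 fold change was -0.71 in KO (standard error 0.17, adjusted p = 0.00403) and -0.63 in KI (0.17, adjusted p = 0.00880), with -0.06 between KO and KI (0.08, adjusted p = 0.596). With library totals it was -0.27 in KO (adjusted p = 0.0836) and -0.28 in KI (adjusted p = 0.121), no longer called. *Cxcl12*, the ligand of CXCR4 and ACKR3, had 0 counts in all 11 libraries, which allows a share of up to 7.81e-06% to 1.01e-05% of a library.

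*Icam1*, an adhesion molecule for leukocyte integrins, and *Nfkbia*, the inhibitor that NF-kB itself induces, differed in their calls. *Icam1* had 66.8, 70.0, 69.6 and 74.7 CPM in KO, 80.4, 88.6 and 120.1 in WT and 55.2, 54.7, 59.0 and 58.4 in KI. The 3 groups did not overlap, with KI lowest. *Icam1* fell by 0.48 in KO (standard error 0.14, adjusted p = 0.0157) and by 0.76 in KI (0.15, adjusted p = 0.00143), and KO exceeded KI by 0.31 (0.08, adjusted p = 0.00487). Without WT library 8 the change in KO was -0.26 (adjusted p = 0.0464). With library totals it was -0.09 in KO (adjusted p = 0.728) and -0.46 in KI (adjusted p = 0.0790), neither called.

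The level of *Nfkbia* was 51.8, 51.9, 57.0 and 59.5 CPM in KO, 48.2, 46.4 and 57.0 in WT and 62.3, 66.8, 69.2 and 57.2 in KI. KO overlapped WT, and each KI library lay above each WT library, by little for KI library 8. None of the 3 comparisons was called, with 0.10 in KO against WT (standard error 0.12, adjusted p = 0.497), 0.34 in KI against WT (0.14, adjusted p = 0.0614) and -0.21 in KO against KI (0.09, adjusted p = 0.0657). Several settings moved *Nfkbia* past the threshold. It was called higher in KI without WT library 8 (0.43, adjusted p = 0.0108), without KI library 8 (0.39, adjusted p = 0.0462) and with all 11 libraries in a joint fit (0.34, adjusted p = 0.0259). With library totals it was 0.51 in KO (adjusted p = 0.0251) and 0.66 in KI (adjusted p = 0.0111), beside all-gene medians of 0.38 and 0.30. The ratio of *Icam1* to *Nfkbia* counts was 1.22 to 1.35 in KO, 1.67 to 2.11 in WT and 0.819 to 1.02 in KI, in which no scaling takes part.

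*Il6ra*, the ligand-binding chain of the IL-6 receptor, was the gene that rose in KO. It had 12.2, 17.3, 16.4 and 16.2 CPM in KO, 4.32, 7.95 and 8.11 in WT and 8.95, 6.67, 8.29 and 6.36 in KI. Each KO library exceeded all WT and KI libraries, which overlapped each other. The log2 fold change was 1.16 in KO against WT (standard error 0.23, adjusted p = 0.00156) and 1.03 in KO against KI (0.15, adjusted p = 4.68e-05), with 0.15 in KI against WT (0.24, adjusted p = 0.650). The counts behind these levels, 97 to 703 per library, were the lowest of the 9 genes. WT library 5-6 gave the 97 counts, and without it the value in KI against WT was -0.08.

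**Figure D2:**
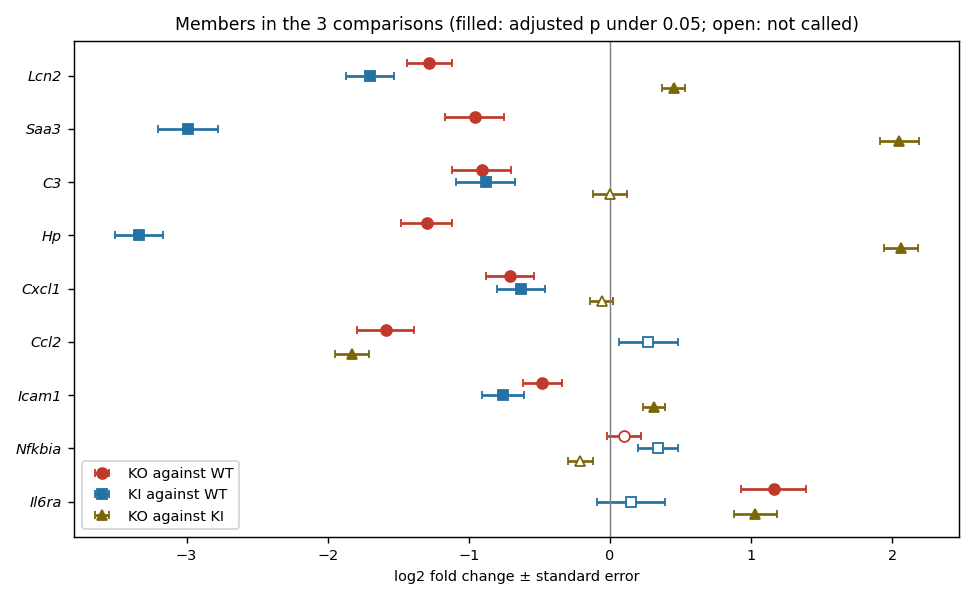
Log2 fold change (horizontal axis) of the 9 detected genes (vertical axis) in KO against WT (circles), KI against WT (squares) and KO against KI (triangles), with the standard error as bars. Filled symbols passed an adjusted p of 0.05. *Hp* and *Saa3* lie at -3.34 and -2.99 in KI against WT, and *Il6ra* is the filled circle to the right of 0.

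For a comparison of levels between genes, counts were divided by exon length (GENCODE vM21, a length for 95.7% of the annotated genes) and the genes were ranked in each library. On this scale, per base, *Saa3* ranked 12 to 17 in WT, 16 to 25 in KO and 149 to 204 in KI, and *Lcn2* ranked 9 to 38, 37 to 58 and 71 to 90. *Ccl2* ranked 43 to 63 in WT, 107 to 121 in KO and 13 to 26 in KI. *Hp* went from rank 91 to 108 in WT to 862 to 976 in KI. *Il6ra* stood between ranks 8704 and 10625 in the 3 groups. Thus the secreted acute-phase proteins and *Ccl2* were among the abundant transcripts of WT cells, whereas the receptor chain was scarce.

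The pattern over the 11 libraries was compared with that of all other tested annotated genes for the 3 genes with the largest change in KO. Pearson's r of the log2 CPM of *Ccl2* was high with *Maff* (0.992) and *Ralb* (0.989). *Hp* was most like *Tpd52* (0.998), *Hsd17b13* (0.994) and *Saa3* (0.990), and *Lcn2* was close to *Pid1* (0.993) and *Cdc42ep4* (0.982). The 11 libraries fall into 3 groups, so these coefficients describe likeness of the group levels, and they are given without a p.

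**Figure D3:**
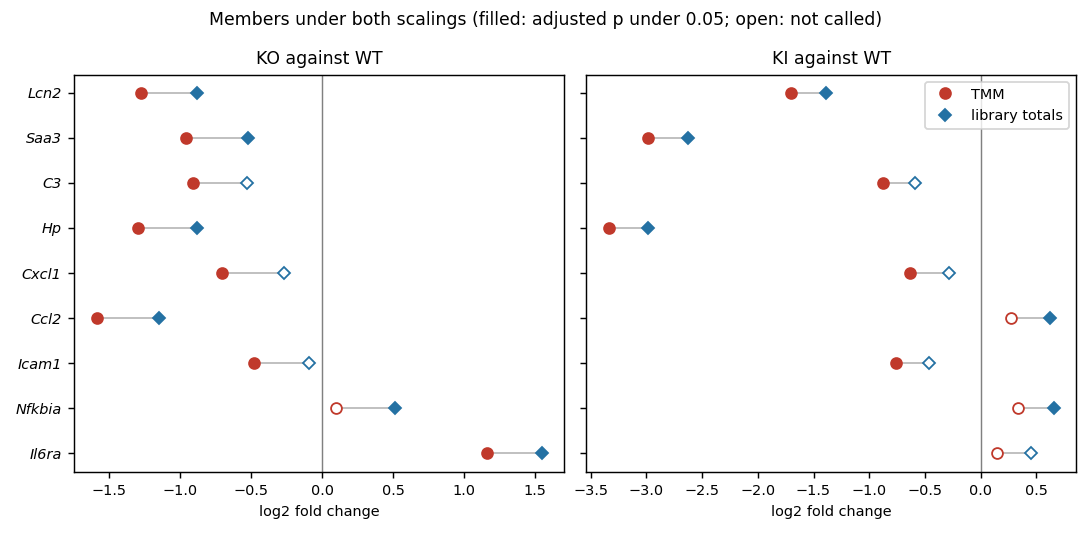
Log2 fold change against WT (horizontal axis) of the 9 detected genes (vertical axis) in KO (left) and KI (right), scaled by TMM (circles) and by library totals (diamonds). Filled symbols passed an adjusted p of 0.05. Library totals move every gene to the right without a change of sign, and *C3*, *Cxcl1* and *Icam1* lose their fill in both panels.

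The other genes of these pathways were taken from 9 lists of 180 genes, 178 of which were in the table. Of 19 tested acute-phase proteins, 11 were lower, 3 higher and 5 not called in KO against WT, with a median of -1.03, where 28.4% of all genes were lower and 26.7% higher. C-reactive protein *Crp* (-2.34, adjusted p = 4.78e-06), the orosomucoid *Orm1* (-2.21, adjusted p = 5.03e-06) and ceruloplasmin *Cp* (-1.87, adjusted p = 5.01e-06) fell most among those above a mean log2 CPM of 2. The largest falls of the list in KO lay below that mean, in *Serpina3n* (-6.88), *Saa1* (-5.40) and *Saa2* (-5.09), all called. Angiotensinogen *Agt* rose in KO (1.16, adjusted p = 3.34e-05), as did the ferritin light chain *Ftl1* (0.69) and hemopexin *Hpx* (0.61). In KI against WT, 14 of 20 were lower, 1 higher and 5 not called, with a median of -1.13, where 21.0% of all genes were lower and 21.2% higher. Above the same mean level, *Saa1* (-4.29, adjusted p = 1.26e-06), *Serpina3n* (-3.88, adjusted p = 2.07e-07) and *Agt* (-1.73, adjusted p = 4.24e-05) fell most. Below that level *Saa2* (-4.86), the largest fall of the list in KI, *Fgb* (-2.94) and *Fga* (-2.66) were also called and fell more than *Agt*. *Agt* thus rose in KO and fell in KI. *Saa1*, a close paralog of *Saa2*, had 18.1 to 27.2 CPM in WT, 0.0920 to 0.900 in KO and 0.689 to 2.13 in KI. Counts of such paralogs, and those of the *Orm* and *Serpina3* families, are uncertain where reads fit several copies. With library totals the split was 8 lower and 5 higher in KO, and 11 lower and 3 higher in KI.

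Of 13 complement genes other than *C3* tested in KO, 8 were lower, 2 higher and 3 not called, where 28.4% of all genes were lower. In KI 8 of 14 were lower, 2 higher and 4 not called, where 21.0% of all genes were lower. *C8g*, a chain of the terminal complex, was at -2.64 in KO and -2.53 in KI, both called lower. *C4b* fell by 2.09 in KO and was not called in KI (-0.55, adjusted p = 0.108). The membrane inhibitor *Cd59a* fell by 1.97 in KO and by 1.61 in KI. The protease *C1s1* rose in KO (1.09) and fell in KI (-1.15, adjusted p = 5.98e-05). Another protease, *C1ra*, rose in KO (0.68) and was not called in KI (-0.19, adjusted p = 0.354). With library totals the counts were 7 lower and 3 higher in KO, and 5 lower and 2 higher in KI.

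Of 25 NF-kB subunits, inhibitors and kinases tested in KO, 8 were higher, 4 lower and 13 not called, and of 26 in KI, 6 were higher, 4 lower and 16 not called. The called share of 48.0% in KO and 38.5% in KI was near that of all genes, 55.1% and 42.3%. *Nfkb1*, the p105/p50 subunit, rose by 1.32 in KI (adjusted p = 2.24e-05) and by 0.60 in KO (adjusted p = 0.00315). Its level was 56.1 to 74.1 CPM in WT, 89.2 to 109.4 in KO and 147.2 to 170.8 in KI. The inhibitor *Nfkbie* rose in KO (0.94, adjusted p = 0.00181) and in KI (0.66, adjusted p = 0.0123), and *Traf2* (0.86) and *Relb* (0.70) rose in KO. The kinase *Ikbke* fell by 0.63 in KO (adjusted p = 7.65e-04) and by 1.18 in KI (adjusted p = 1.41e-05), and with library totals it was called in KI (-0.85) but not in KO (-0.21). This list depended on the scaling, since library totals gave 13 higher and 0 lower in KO and 11 higher and 1 lower in KI. Of all genes called with library totals, 72.8% were higher in KO and 76.3% in KI.

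Among 21 other chemokines, adhesion molecules and NF-kB targets tested in KO, 9 were lower, 5 higher and 7 not called, and among 22 in KI, 5 were lower, 6 higher and 11 not called. The called share was 66.7% in KO, against 55.1% of all genes, while in KI 11 of 22 were called, against 42.3%. *Ccl7*, a monocyte attractant like *Ccl2*, rose by 3.32 in KO (adjusted p = 4.74e-06) and by 3.92 in KI (adjusted p = 4.59e-07), from 1.45 to 3.57 CPM in WT to 20.2 to 29.7 in KO and 36.8 to 44.9 in KI. *Cxcl3*, which shares the receptor CXCR2 with *Cxcl1*, rose by 1.33 in KO (adjusted p = 8.27e-06) and 1.65 in KI (adjusted p = 4.33e-06). *Cxcl5*, another ligand of that receptor, fell by 0.90 in KO and *Cxcl2* by 0.73 in KI. Chemokines of a shared receptor were thus called in opposite directions, and these 4 calls were kept with library totals. *Birc2*, an inhibitor of apoptosis, fell by 1.23 in KO and 0.90 in KI. The stress gene *Ier3* fell by 0.86 in KO and rose by 0.96 in KI (adjusted p = 1.44e-04). With library totals 5 were lower and 6 higher in KO, and 3 lower and 8 higher in KI. Of 10 chemokine receptors 8 had at most 3 counts in any KO or WT library, and *Ackr3*, the receptor shared with *Cxcl12*, was not called in KO or KI against WT.

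**Figure D4:**
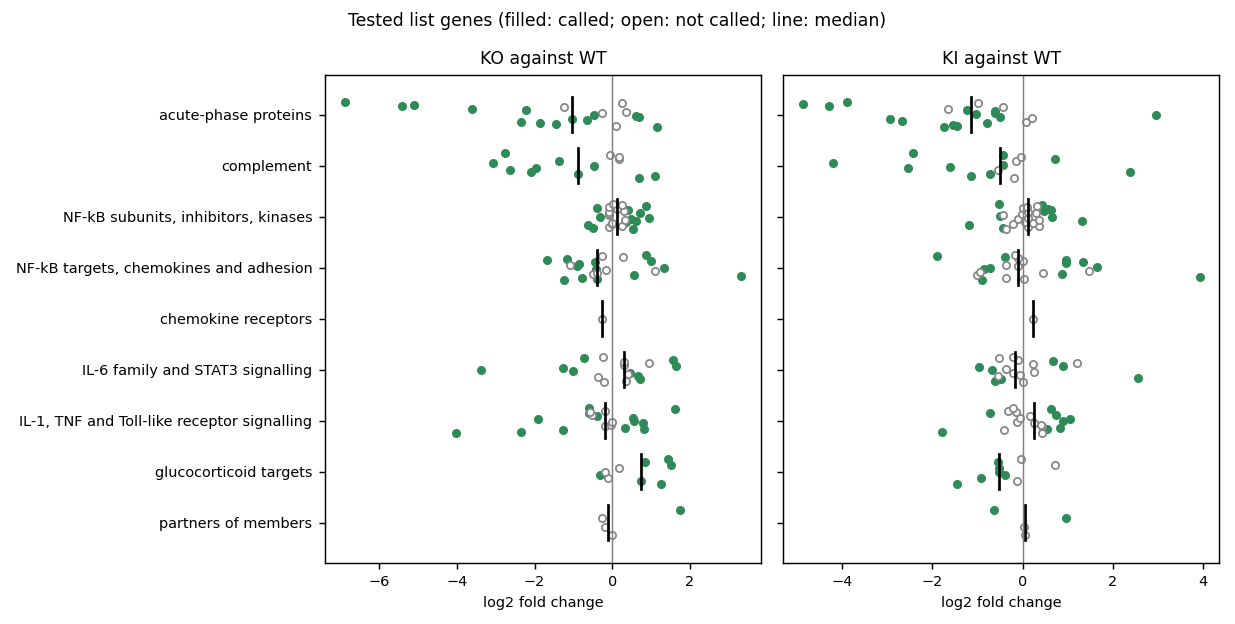
Log2 fold change (horizontal axis) of the tested genes of each of the 9 lists (rows) in KO against WT (left) and KI against WT (right). Filled points passed an adjusted p of 0.05 and vertical lines are medians. The acute-phase medians lie at -1.03 and -1.13. The median of the glucocorticoid targets with their receptor lies at 0.73 in KO and -0.51 in KI. In KI, 6 of these 9 were lower with TMM and 2 of 9 with library totals.

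Upstream of these genes, the IL-6 family and STAT3 list had 5 higher, 4 lower and 8 not called of 17 tested in KO, and 3 higher, 4 lower and 11 not called of 18 in KI. The called share was 52.9% in KO and 38.9% in KI, near the 55.1% and 42.3% of all genes. The oncostatin M receptor *Osmr* fell by 1.28 in KO (adjusted p = 1.87e-05) and by 0.97 in KI (adjusted p = 5.98e-04), and *Jak2* by 1.01 in KO and by 0.67 in KI. *Stat3* fell by 0.72 in KO (adjusted p = 0.00648), while the STAT3 inhibitor *Pias3* rose in KO (1.65) and in KI (0.89, adjusted p = 0.0138). *Socs3*, a feedback inhibitor of IL-6 signalling, rose by 0.68 in KI (adjusted p = 0.00210). *Il6* itself had at most 14 counts in any library and was not tested. With library totals *Stat3* in KO (-0.35, adjusted p = 0.244) and *Jak2* in KI (-0.34, adjusted p = 0.0728) were not called, and the list had 9 higher and 3 lower in KO and 5 higher and 1 lower in KI.

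Of 19 tested genes of IL-1, TNF and Toll-like receptor signalling, 7 were lower, 6 higher and 6 not called in KO, and 2 were lower, 6 higher and 11 not called in KI. The called share was 68.4% in KO, against 55.1% of all genes, and 42.1% in KI, against 42.3%. *Il1rap*, the accessory chain of the IL-1 receptor, fell by 2.34 in KO (adjusted p = 1.27e-06) and by 1.78 in KI (adjusted p = 4.15e-05), and the receptor antagonist *Il1rn* fell by 1.27 in KO. The IL-1 receptor *Il1r1*, under the mean level used for naming, fell by 4.02 in KO (adjusted p = 3.76e-07). It had 11.2 to 15.6 CPM in WT and 0.592 to 1.04 in KO. In KI *Il1r1* was not called (0.44, adjusted p = 0.0830), but was higher with library totals (0.76, adjusted p = 0.0233). The TNF receptor *Tnfrsf1b* (1.61 in KO, 0.63 in KI) and *Irak1* (0.82 and 0.55) were called higher in both KO and KI. So were *Tirap* (0.57 and 0.90) and *Irak2* (0.33 and 0.83). *Myd88* rose in KO (0.80) and was not called in KI (0.26, adjusted p = 0.300). *Tlr1* rose in KI (1.05) and fell in KO (-1.90, adjusted p = 0.00910). *Il1b* had 0 counts in all libraries. With library totals there were 4 lower and 7 higher in KO, and 1 lower and 7 higher in KI.

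Glucocorticoid targets, and with them the receptor *Nr3c1*, were listed because the AML12 medium described held dexamethasone. Of 9 tested, 5 were higher and 1 lower in KO against WT, 0 higher and 6 lower in KI against WT, and 7 higher and 0 lower in KO against KI (the counts of 0 were also 0 at an unadjusted p under 0.05), with medians of 0.73, -0.51 and 0.85. Over all genes 26.7% were higher and 28.4% lower in KO, 21.2% and 21.0% in KI, and 27.0% and 27.0% in KO against KI. *Dusp1*, a phosphatase of MAP kinases, had 143.8 to 156.6 CPM in KO, 51.6 to 71.6 in WT and 20.3 to 24.6 in KI, and its log2 fold change was 1.25 in KO (adjusted p = 3.05e-05) and -1.45 in KI (adjusted p = 1.64e-05). *Zfp36*, which destabilizes cytokine mRNAs, rose by 1.43 in KO, and *Tsc22d3*, encoding GILZ, rose by 0.84 in KO and fell by 0.54 in KI. The glucocorticoid receptor *Nr3c1*, which is not a target, was the lower gene in KO (-0.31, adjusted p = 0.0312). It was also among the 6 lower in KI (-0.38, adjusted p = 0.0311). With library totals *Nr3c1* was not called in KO or KI. In KI, 2 of the 9 were lower with library totals, *Dusp1* (-1.10) and *Klf9* (-0.60), and *Tsc22d3* was not called. In KO, library totals gave 6 higher and 0 lower.

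Of 9 further genes, listed beside the 10 as receptors, proteases and a growth factor, 4 were tested. *Lrp1*, a scavenger receptor that takes up hemopexin and heme, rose by 1.75 in KO (adjusted p = 5.31e-04), and fell by 0.62 in KI (adjusted p = 0.0473), where its libraries overlapped those of WT and the call was lost with library totals. *Adam17*, the protease that sheds the IL-6 receptor, was at -0.20 in KO (adjusted p = 0.195) and 0.03 in KI (adjusted p = 0.866) against WT. *Hbegf*, a growth factor shed by that protease, rose by 0.97 in KI (adjusted p = 1.27e-04).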

How the data were processed

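Polyadenylated RNA of 4 KO, 3 WT and 4 KI libraries of AML12 cells was sequenced at a commercial centre. The authors deposited a table of read counts per gene, without normalization, in 26472 lines. After 10 lines with damaged fields were left out, 26462 remained, made up of 23502 entries of annotated genes and 2960 of new assemblies, and summing by symbol gave 24849 genes. The submitters' processing notes name HISAT2, TopHat2, Bowtie2 and StringTie without versions, and the genome build and the counter are not given in the sources used here. FPKM columns, whose decimal points were lost, and columns of the authors' own comparisons (log2 fold changes, adjusted p-values and calls) were not used.

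Counts were filtered with filterByExpr, scaled by TMM and tested with edgeR 4.0.16 in R 4.3.3 (quasi-likelihood, robust, prior count 2), each comparison with the libraries of its 2 groups, and Benjamini-Hochberg adjustment over all genes tested, with calls under 0.05. The standard error was the log2 fold change divided by the square root of F. Alternatives were DESeq2 1.42.0, other size factors, library totals, no filter, a joint fit, a replicate block, table entries and each library left out. Figures were drawn with Python 3.11.15 and matplotlib 3.10.9, and the test was tested on simulated data. The genes and lists were chosen with earlier results of these data known. From each list the up to 3 called genes with the largest rise and fall at a mean log2 CPM of at least 2 are named, and of these a part is printed. *Il6*, *Ackr3*, *Adam17*, *Il1r1*, *Saa2*, *Fga*, *Fgb*, *Cd68*, *Ptprc*, the KO values of *Serpina3n* and *Saa1*, and the marker genes at 0 lie outside this rule. So do some values of a named gene in the other edited line, as for *Tlr1* in KO. All of these were added after their values were seen. Results for 4 genes that the rules name are not reported here. Replicate numbers were not used as pairs, since libraries with the same number correlated between -0.33 and 0.42 across genes, not over 0.1 in every pair.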

Additional observations from a re-analysis of the deposited data

How the results depend on the processing

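The counts called among the 9 genes, among all genes and among the 9 lists together stayed within 1.5 times their values under the alternatives run. Single lists moved more, as with library totals 2 in place of 6 genes of the glucocorticoid list were called in KI against WT. Leaving out each library in turn, 8 to 8 of the 9 genes were called in KO against WT, 6 to 7 in KI against WT and 6 to 7 in KO against KI, and over all genes 6161 to 8449, 4276 to 6969 and 6515 to 7230. The replicate block was a fit that grouped libraries of a shared number, and against WT it put libraries 5, 6 and 5-6 in the same block. With it, 8, 6 and 6 of the 9 genes and 8183, 4891 and 6453 of all genes were called, and no call of the 9 genes changed. Values that changed sign were all uncalled ones. *Il6ra* in KI against WT was -0.08 to 0.30 with a library left out, and under 0 without WT replicate 5-6. *C3* in KO against KI was 0.05 with library totals and -0.09 to 0.10 with a library left out, above 0 without KO replicate 5 (0.05), KO replicate 6 (0.03) or KI replicate 7 (0.10), and *Cxcl1* in KO against KI was 0.00 with library totals. *Nfkbia* in KO against KI was called with DESeq2 (-0.22, adjusted p = 0.0369), without KO replicate 8 (-0.25, adjusted p = 0.0478) and without KI replicate 8 (-0.27, adjusted p = 0.0186). The scaling ended the calls of *C3*, *Cxcl1* and *Icam1* against WT, and brought in those of *Nfkbia* and of *Ccl2* in KI. WT replicate 8 was the highest WT library for *Lcn2*, *C3* and *Icam1* and the lowest for *Saa3*, *Hp*, *Cxcl1* and *Ccl2*, and the cause was not tested. Depth limits *Il6ra* most among the detected genes, and *Cxcl12* was not detectable.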
